A study of Rattus norvegicus with 12 samples.

Results

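The response of the mammary gland to 17β-estradiol (E2), the main ovarian estrogen, was examined in rats that ate soy protein isolate. The comparison takes the 3 arrays whose titles name estradiol together with soy and sets them against the 3 arrays whose titles name soy alone, 6 of the 12 arrays of the series, over all 14217 genes measured. The soy plus E2 and the soy groups were both female Sprague-Dawley rats fed the soy isolate from postnatal day 30 to postnatal day 64, both were ovariectomized on day 50, and abdominal mammary glands were taken on day 64. The groups differed in what followed ovariectomy, which was E2 from an implanted osmotic pump or vehicle for 14 days. Each array carried a pool of RNA, and neither the number of animals in a pool nor the E2 dose is given in the sources used here. The labels do not say whether the pools within a group drew on different animals, and p-values therefore rest on a pool-to-pool spread that may be technical. The other 6 arrays, of casein-fed rats with and without E2, entered the fit only to share its estimate of the spread and to test whether the response differed between diets. A label field calls the material hepatic while the source field names mammary gland. In the centred values described below, the liver gene Fabp1 was at 8.01 in casein pool 3, against -0.65 to 0.21 in the soy-fed pools. Alb, another liver gene, was at 4.69 in casein pool 3, against -2.60 to 1.33 in the soy-fed pools. Which tissue the pools held was not tested.

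Estradiol acts through the estrogen receptors, transcription factors encoded by Esr1 and Esr2. In the mammary gland of rodents the receptor sits in a part of the luminal cells, and these send growth factors such as amphiregulin to their neighbours. Ovariectomy removes most circulating estrogen, and the ducts regress until the hormone is replaced. Most of the gland's mass outside pregnancy is fat, threaded by ducts of luminal and basal epithelium and by vessels, fibroblasts, mast cells and macrophages. Soy protein isolate carries isoflavones, plant compounds that can bind estrogen receptors.

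Values were read as log2 and stand centred on 0 for each probe set, so they give differences between pools and no level, and whether a marker was expressed at all cannot be read from them. A difference is the mean of the soy plus E2 pools minus the mean of the soy pools on this log2 scale, given with the standard error (SE) of limma's fit, and called genes are those whose p, adjusted by Benjamini-Hochberg over all genes, lay under 0.05. The number of arrays limits the precision of every value. RNA came from whole glands, so fewer cells of a type and less RNA per cell cannot be told apart.

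Single pools stood apart in ways that bear on what follows. Soy pool 2 carried skeletal muscle transcripts, with a mean over 35 muscle genes of 2.56, against -0.51 and -0.17 in soy pools 1 and 3 and -0.56 to -0.35 in the soy plus E2 pools. Soy plus E2 pool 3 had the smallest spread of all 12 arrays, with an SD over probe sets of 0.179 where the others had 0.262 to 0.451. The lymphocyte list of 21 genes averaged -0.64 in soy plus E2 pool 2 and -1.17 in soy pool 1, against 0.68 to 1.88 in the other 4 pools. The same pair of pools were the ones with a positive mean of the 18 hybridisation spike-in probe sets, so this split takes 1 pool from each group.

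Estradiol raised 26 genes and lowered 5 in soy-fed rats, 0.183% and 0.0352% of the genes tested. The called genes ranged from a 66.6-fold rise of the milk protein gene Wap to a difference of 0.62 ± 0.093 for the acid-sensing ion channel gene Asic2. Of the called genes 5 had 2 probe sets. In Asic2 (0.88 and 0.36), Car2 (1.58 and 1.30) and Plekhh1 (2.38 and 1.34) neither passed on its own, and in Greb1 and Extl1 1 did. In all 31 the 3 soy plus E2 pools lay apart from the 3 soy pools, which was also true of 12.6% of all genes on the higher side and 12% on the lower side. These shares are the background for every later count of separate groups with all pools. An unadjusted p under 0.05 was found for 2935 genes, 20.6% of those tested. All 31 had the same sign on both sides of the spike-in split, but separate groups force this, so the signs test nothing. The split took 1 pool from each group, so adding it to the fit left their differences unchanged. All 31 passed in that fit too, where only the spread and the p-values could change. The count of called genes depended on single pools. By limma 0 genes were called without soy pool 2 and 0 without soy pool 3, with 2628 and 2323 genes at an unadjusted p under 0.05, and 4 were called without soy pool 1. Leaving out soy plus E2 pool 1 gave 2 that were among the 31. Leaving out soy plus E2 pool 2 gave 1 that was not among the 31. Leaving out soy plus E2 pool 3 gave 760. Leaving out any 1 pool also raised the share of all genes with separate groups, to between 14.0% and 21.8% on the higher side and between 14.1% and 21.3% on the lower side.

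**Figure D1:**
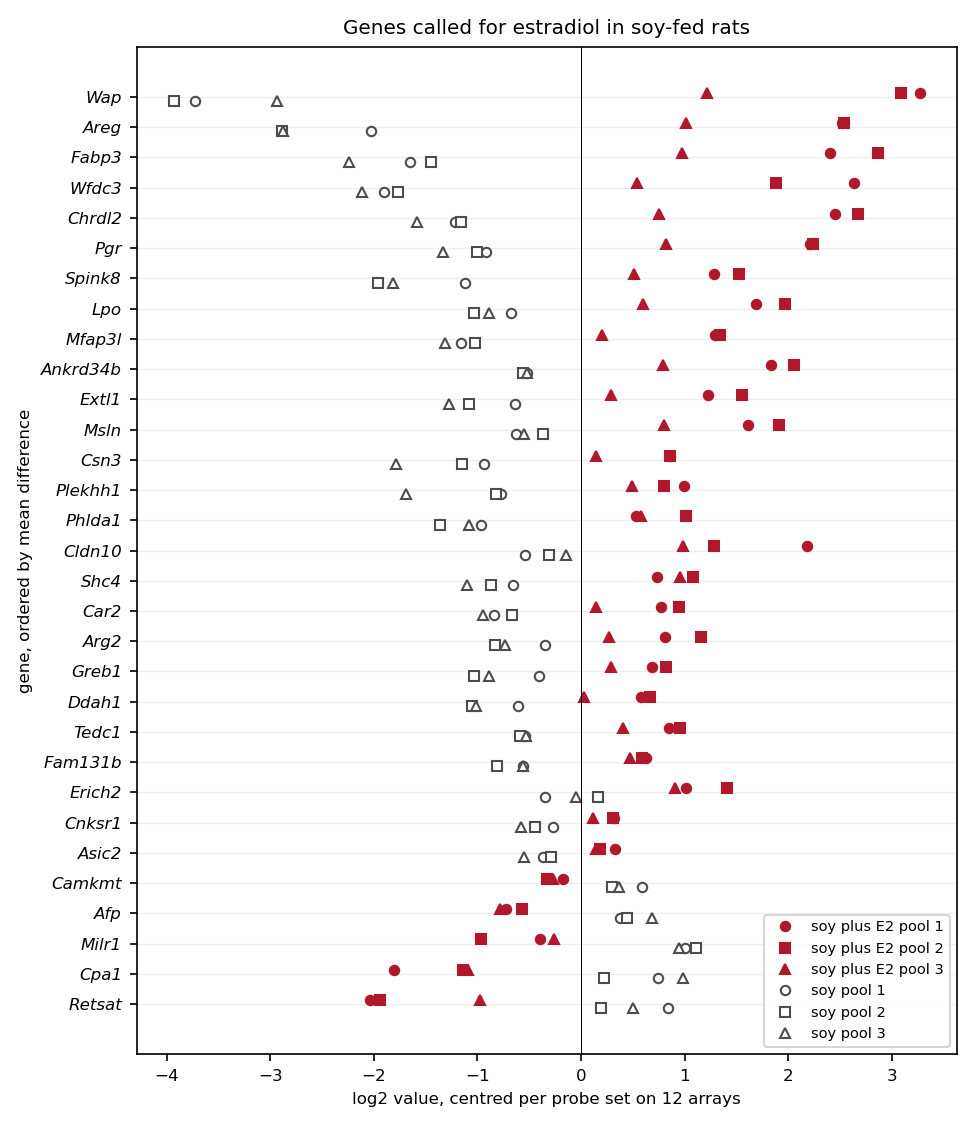
Centred log2 values (x axis) of the 31 called genes (rows, ordered by mean difference) in each soy plus E2 pool (filled red) and each soy pool (open grey), with a symbol for each pool number. The 26 raised genes have all red symbols to the right of the grey ones and the 5 lowered genes to the left, and soy plus E2 pool 3 (triangles) is the red symbol nearest to the grey ones in 27 of the 31.

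**Figure D2:**
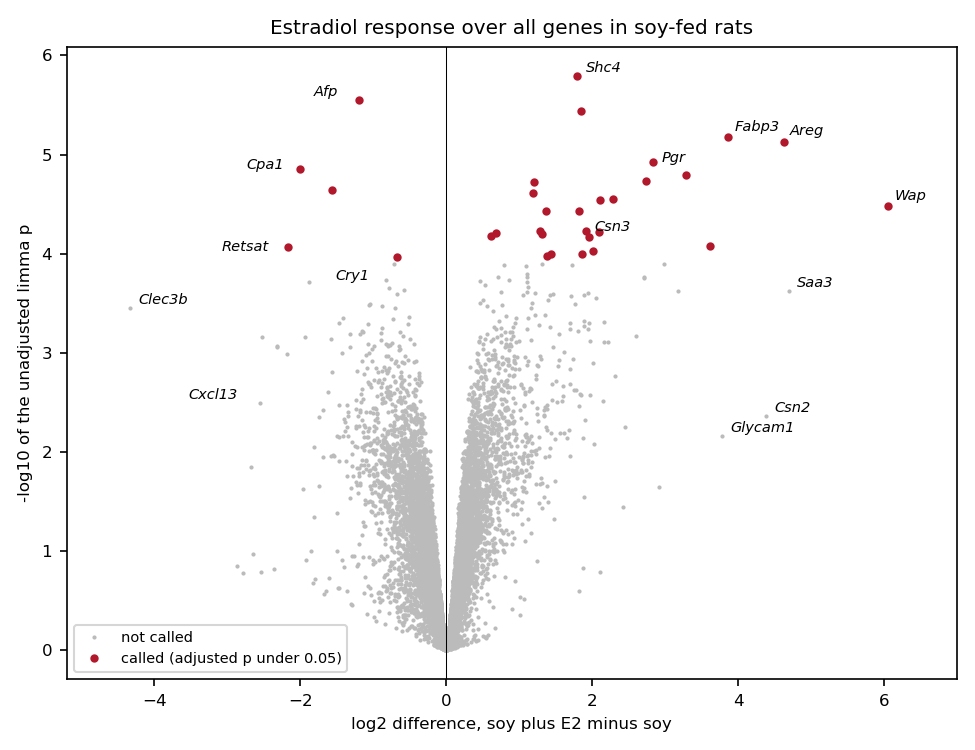
Log2 difference of soy plus E2 minus soy (x axis) against -log10 of the unadjusted limma p (y axis) for all genes tested. Called genes are red, and Clec3b, Saa3, Csn2 and Glycam1 had differences as large as those of called genes without passing the threshold.

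The largest rise was that of a milk protein gene. Wap encodes whey acidic protein, a secreted milk protein of rodents, Csn3 the kappa-casein that coats casein micelles, and Csn1s1 and Csn2 an alpha and the beta casein. The start regions of these 4 genes are shown because Wap had the largest rise and the others encode milk proteins too. Each can be searched for the letters that estrogen receptor and Stat5 are known to bind. Of the 4, Csn2 and Csn1s1 were not called. The windows run from 250 bases before to 50 bases after the annotated start, in the direction of transcription (RefSeq, GRCr8). Capitals mark the half-site GGTCA (or TGACC, the same letters on the other strand) and the spaced palindrome TTCNNNGAA, in which Stat5 sites are written; the 2 motifs do not overlap in these windows. The windows are chr14:85719110-85719409 on the minus strand for Wap, chr14:20439781-20440080 on the minus strand for Csn3, chr14:20601574-20601873 on the plus strand for Csn2 and chr14:20638800-20639099 on the minus strand for Csn1s1.
Wap: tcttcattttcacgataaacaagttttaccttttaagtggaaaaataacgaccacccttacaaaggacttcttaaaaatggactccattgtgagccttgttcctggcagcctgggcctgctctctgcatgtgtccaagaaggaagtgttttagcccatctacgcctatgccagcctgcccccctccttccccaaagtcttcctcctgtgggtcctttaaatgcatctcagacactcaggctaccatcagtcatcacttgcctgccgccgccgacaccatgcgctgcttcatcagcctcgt
Csn3: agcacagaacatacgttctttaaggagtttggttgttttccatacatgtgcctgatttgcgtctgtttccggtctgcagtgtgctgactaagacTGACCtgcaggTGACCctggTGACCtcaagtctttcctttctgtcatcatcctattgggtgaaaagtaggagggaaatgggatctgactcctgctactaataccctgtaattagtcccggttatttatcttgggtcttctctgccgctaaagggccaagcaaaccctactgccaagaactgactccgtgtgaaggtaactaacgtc
Csn2: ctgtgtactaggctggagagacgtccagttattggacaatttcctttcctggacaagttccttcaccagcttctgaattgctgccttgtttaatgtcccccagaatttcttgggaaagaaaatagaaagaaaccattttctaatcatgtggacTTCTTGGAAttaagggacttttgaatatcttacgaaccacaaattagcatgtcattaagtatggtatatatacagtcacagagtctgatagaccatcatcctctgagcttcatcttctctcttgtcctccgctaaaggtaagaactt
Csn1s1: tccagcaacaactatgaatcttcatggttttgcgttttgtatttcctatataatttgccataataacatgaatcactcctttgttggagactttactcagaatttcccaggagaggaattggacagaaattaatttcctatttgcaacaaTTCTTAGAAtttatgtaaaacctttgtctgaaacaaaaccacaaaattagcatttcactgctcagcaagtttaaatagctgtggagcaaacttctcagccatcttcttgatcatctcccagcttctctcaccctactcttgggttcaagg
The Csn3 window held 3 half-sites, the Csn2 and Csn1s1 windows 1 TTCNNNGAA stretch each, and the Wap window neither. Over all 33469 windows of 27457 genes the half-site occurred in 40.5%, TTCNNNGAA in 8.87% and the full estrogen response element, in which 2 half-sites face each other across 3 bases, in 0.0269% (9 windows). Of the 26 raised genes 20 had a window (21 in all), and 11 of these windows, 52.4%, held a half-site, while none held either of the longer motifs. All 5 lowered genes had 1 window, and 3 of the 5 held a half-site. A match is a description of letters and not a bound site.

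Wap stood at 3.27, 3.09 and 1.22 in the soy plus E2 pools, against -3.73, -3.93 and -2.93 in the soy pools. The groups were far apart, and soy plus E2 pool 3 was the lowest of its group. Its difference was 6.06 ± 0.83 (limma adjusted p = 0.0311). Csn3 was measured at 0.86, 0.86 and 0.14 in the soy plus E2 pools, against -0.93, -1.15 and -1.79 in the soy pools, and its difference of 1.91 ± 0.28 passed as well (adjusted p = 0.0398). Lactoperoxidase, an antibacterial enzyme of milk encoded by Lpo, was at 1.69, 1.97 and 0.59 in the soy plus E2 pools, against -0.67, -1.04 and -0.89 in the soy pools, a rise of 2.29 ± 0.31 (adjusted p = 0.0295). Fabp3, a fatty acid binding protein of muscle and of the lactating gland, had 2.41, 2.87 and 0.98 in the soy plus E2 pools, against -1.65, -1.45 and -2.24 in the soy pools. It rose by 3.86 ± 0.44 (adjusted p = 0.0211). In soy pool 2, the pool with muscle transcripts, Fabp3 lay at -1.45, and the difference was 4.03 without that pool.

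All 20 measured genes of the milk protein and milk fat list were higher with E2, and 4 of them were the called genes just given. In 15 of the 20 the groups did not overlap, against 12.6% of all genes, and the median difference was 1.35, against -0.0025 over all genes tested. Csn2 had 1.06, 0.99 and 0.64 in the soy plus E2 pools, against -3.63, -4.29 and -2.53 in the soy pools, a difference of 4.38 ± 1.18 whose soy pools spread widely (adjusted p = 0.113). Csn1s1 (1.02 ± 0.25) and the alveolar transcription factor gene Elf5 (1.85 ± 0.46) had separate groups without passing. The mucin-like Glycam1 was at 1.75, 1.68 and 0.96 in the soy plus E2 pools, against -4.84, -1.58 and -0.52 in the soy pools, with a difference of 3.78 ± 1.10 (adjusted p = 0.124). The list averaged 1.13, 1.02 and 0.26 in the soy plus E2 pools and -0.96, -0.97 and -1.26 in the soy pools. The 23 luminal epithelium genes averaged 0.45, 0.36 and -0.015 in the soy plus E2 pools and -0.15, -0.48 and -1.21 in the soy pools, and their part in the rise of milk genes was not tested.

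Wap gives its name to a family of small secreted proteins, many of them protease inhibitors, and 2 other protease inhibitor genes of related kinds rose. Wfdc3, of the same family, was at 2.64, 1.89 and 0.54 in the soy plus E2 pools, against -1.90, -1.77 and -2.11 in the soy pools, a rise of 3.62 ± 0.56 (adjusted p = 0.0471). Spink8, a Kazal-type inhibitor gene, had 1.29, 1.53 and 0.51 in the soy plus E2 pools, against -1.12, -1.96 and -1.82 in the soy pools and rose by 2.74 (SE 0.35, adjusted p = 0.027). In both soy plus E2 pool 3 was the lowest pool of its group and still above all soy pools. The membrane-bound inhibitor gene Spint1 (0.91 ± 0.26) had separate groups and did not pass. In all 3 of 14 listed genes, Wap included, were called and 6 had separate groups on the higher side.

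Of 27 estrogen receptor and target genes 3 rose. Pgr, the progesterone receptor gene and a classical target, was at 2.21, 2.24 and 0.82 in the soy plus E2 pools, against -0.91, -1.0 and -1.33 in the soy pools, with a rise of 2.84 ± 0.35 (adjusted p = 0.027). Greb1, a cofactor gene induced by the estrogen receptor, was at 0.68, 0.82 and 0.29 in the soy plus E2 pools, against -0.40, -1.03 and -0.89 in the soy pools, a rise of 1.37 ± 0.19 (adjusted p = 0.0311) that came from 1 of its 2 probe sets, which differed by 2.64, against 0.10 for the other. Areg, which encodes amphiregulin, the epidermal growth factor (EGF) receptor ligand that carries the estrogen signal between mammary cells in mice, had 2.52, 2.54 and 1.01 in the soy plus E2 pools, against -2.02, -2.89 and -2.88 in the soy pools. Its rise of 4.62 ± 0.53 (adjusted p = 0.0211) was the second largest of the called genes. The receptor genes were not called. Esr1 differed by -0.12 ± 0.15 and Esr2 by 0.079 ± 0.098, with overlapping groups. In the list 7 genes had separate groups on the higher side and 3 on the lower side, 25.9% and 11.1%, and the median difference was 0.071. Xbp1 (0.45 ± 0.11), the prolactin receptor gene Prlr (0.76 ± 0.25) and the cyclin D1 gene Ccnd1 (0.72 ± 0.23) were higher in every soy plus E2 pool without passing, and Ctsd (-0.55 ± 0.19) and Igfbp5 (-0.34 ± 0.14, but 0.22 by its probe set of largest SD) were lower in every one.

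Of 15 EGF receptor ligand and ErbB receptor genes Areg was the only one called. The ligand genes Btc (0.34 ± 0.083) and Tgfa (0.33 ± 0.14) and the receptor gene Erbb2 (0.97 ± 0.29) also had separate groups without passing. Shc4, a gene for an adaptor that links receptor tyrosine kinases to Ras, had the smallest p of all genes, with 0.74, 1.08 and 0.96 in the soy plus E2 pools, against -0.65, -0.87 and -1.10 in the soy pools and a rise of 1.80 ± 0.17 (adjusted p = 0.0174). In this gene soy plus E2 pool 3 was as high as the other pools of its group. Cnksr1, a scaffold gene of the same pathway, rose by 0.68 (SE 0.10, adjusted p = 0.0398), with 0.32, 0.31 and 0.11 in the soy plus E2 pools, against -0.27, -0.45 and -0.58 in the soy pools.

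In the Wnt and RANKL list no gene of 21 was called, and 3 were higher and 4 lower in every soy plus E2 pool, 14.3% and 19.1% against 12.6% and 12% of all genes, so that the list stood near the background. Those that were lower in every soy plus E2 pool included Tnfrsf11b, the decoy receptor gene that blocks RANKL, with -1.10, -0.63 and -0.22 in the soy plus E2 pools, against 1.001, 0.75 and 1.01 in the soy pools (-1.57 ± 0.32, adjusted p = 0.0766), and the Wnt inhibitor genes Wif1 (-0.76 ± 0.17) and Sfrp4 (-0.83 ± 0.26). The Wnt ligand gene Wnt2 (-1.004 ± 0.31) was lower in every one too. Higher in every one were Lgr4 (0.63 ± 0.16), Wnt5a (0.42 ± 0.20) and Dkk3 (0.15 ± 0.073). The RANK gene Tnfrsf11a was higher by 1.23 ± 0.38 with overlapping groups. Of the growth hormone and insulin-like growth factor genes, Igf1 (-1.40 ± 0.38), the growth hormone receptor gene Ghr (-1.36 ± 0.38) and Igfbp3 (-1.75 ± 0.47) were lower in every soy plus E2 pool and Igfbp2 (1.13 ± 0.28) higher, and none of the 17 was called. Igf1 had -1.91, -1.34 and -0.084 in the soy plus E2 pools, against 0.46, 0.16 and 0.23 in the soy pools, so that soy plus E2 pool 3 lay close to the soy pools.

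Of 12 genes of the prolactin and Stat5 pathway 6 had separate groups on the higher side, although none was called, and 2 had separate groups on the lower side. These were 50% and 16.7%, against 12.6% and 12% of all genes. Stat5a, the transcription factor gene that drives milk genes, was at 0.83, 0.76 and 0.088 in the soy plus E2 pools, against -0.33, -0.24 and -0.49 in the soy pools (0.91 ± 0.19, adjusted p = 0.0766), and Gata3 (1.17 ± 0.30) and Elf5, both luminal regulators, were higher as well. The feedback inhibitor gene Cish was lower in every soy plus E2 pool (-0.61 ± 0.23), while Socs2, another inhibitor of the pathway, was higher in every one (0.79 ± 0.27).

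Many epithelial junction and transport genes were higher with E2. Cldn10, which encodes an ion-pore forming claudin of tight junctions, was at 2.19, 1.28 and 0.99 in the soy plus E2 pools, against -0.54, -0.31 and -0.14 in the soy pools, a rise of 1.82 ± 0.25 (adjusted p = 0.0311), and was the called gene of 15 tight junction genes. Ocln (0.92 ± 0.22), Cgn (1.18 ± 0.39) and Crb3 (0.90 ± 0.24) had separate groups on the same side, and Cldn1 (-0.35 ± 0.13) and Cldn11 (-0.39 ± 0.14) on the lower side. No transporter gene of 27 was called, but 12 were higher in every soy plus E2 pool, against 1 that was lower. These were 44.4% and 3.70%, against 12.6% and 12% of all genes. The phosphate carrier gene Slc34a2 had 1.68, 1.56 and 0.10 in the soy plus E2 pools, against -0.92, -0.82 and -1.83 in the soy pools (2.31 ± 0.54), the zinc exporter gene Slc30a4 differed by 1.36 ± 0.26, the calcium pump gene Atp2c2 by 1.53 ± 0.34 and Slc12a2, a chloride co-transporter gene, by 0.85 ± 0.19. Without soy plus E2 pool 3, 9 of the 27 transporter genes were called higher and 1 lower, against 2.76% and 2.58% of all genes in that fit. Carbonic anhydrase 2, which hydrates carbon dioxide and is encoded by Car2, rose by 1.44 (SE 0.23, adjusted p = 0.0491), with 0.77, 0.95 and 0.15 in the soy plus E2 pools, against -0.84, -0.67 and -0.95 in the soy pools.

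Genes of the luminal and basal epithelial lists were mostly higher with E2, and no member of either list was called. Of 23 luminal genes 14 were higher in every soy plus E2 pool and 1, the receptor gene Kit that mast cells share, was lower, with a median difference of 1.03. Of 17 basal and myoepithelial genes 9 were higher in every one and none lower, with a median of 0.76. The higher shares of the luminal and basal lists were 60.9% and 52.9%, against 12.6% of all genes. The cell adhesion gene Epcam was at 0.64, 0.36 and 0.022 in the soy plus E2 pools, against -0.10, -0.56 and -1.51 in the soy pools (1.07 ± 0.33) and the surface antigen gene Cd24 at 1.10, 1.14 and 0.33 in the soy plus E2 pools, against -0.79, -0.71 and -1.86 in the soy pools (1.97 ± 0.41, adjusted p = 0.0766). The basal keratin gene Krt14 was at 0.46, 0.64 and 0.29 in the soy plus E2 pools, against -0.29, -0.77 and -1.36 in the soy pools (1.26 ± 0.28, adjusted p = 0.0844), and Krt17 (1.22 ± 0.23), Tp63 (0.82 ± 0.17) and Lgals7 (1.69 ± 0.33) were higher in every soy plus E2 pool too. Soy pool 3 was the lowest pool for these genes, with a luminal mean of -1.21, against -0.15 and -0.48 in soy pools 1 and 2. Without it the luminal median was 0.64 and the basal median 0.55.

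Of 36 cell division genes 34 were on the higher side, 19 had separate groups on that side and none on the other, and the median difference was 0.51. The 19 were 52.8% of the list, against 12.6% of all genes. Cdk1, the kinase that starts mitosis, was at 0.45, 0.57 and 0.22 in the soy plus E2 pools, against -0.93, -0.90 and -0.30 in the soy pools (1.13 ± 0.20, adjusted p = 0.0605), and the proliferation marker gene Mki67 at 0.32, 0.81 and 0.019 in the soy plus E2 pools, against -0.77, -0.98 and -0.36 in the soy pools (1.09 ± 0.24, adjusted p = 0.0827). In both, soy plus E2 pool 3 lay nearest to the soy pools. Ect2 (1.17 ± 0.22) and Kif23 (0.53 ± 0.092), needed for the final separation of daughter cells, were higher in every soy plus E2 pool too. None was called with all pools, and 11 of the 36 were called higher without soy plus E2 pool 3, against 2.76% of all genes. Without soy pool 3 the groups were separate in 33 of the 36, against 18.5% of all genes. Without soy plus E2 pool 3 they were separate in 28, against 21.8%. Leaving out any other single pool gave 19, against 14.0% to 21.1% of all genes. None of the 36 was called in any fit that left out 1 pool other than soy plus E2 pool 3. The mean of the list was 0.24, 0.39 and 0.017 in the soy plus E2 pools and -0.44, -0.45 and 0.021 in the soy pools, so that the means of soy plus E2 pool 3 and soy pool 3 were alike. Among G1 regulators Ccnd1 and Rb1 (0.68 ± 0.17) were higher, while Ccnd2 (-0.54 ± 0.17) and Ccnd3 (-0.41 ± 0.11) were lower in every soy plus E2 pool, and none of 18 was called.

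**Figure D3:**
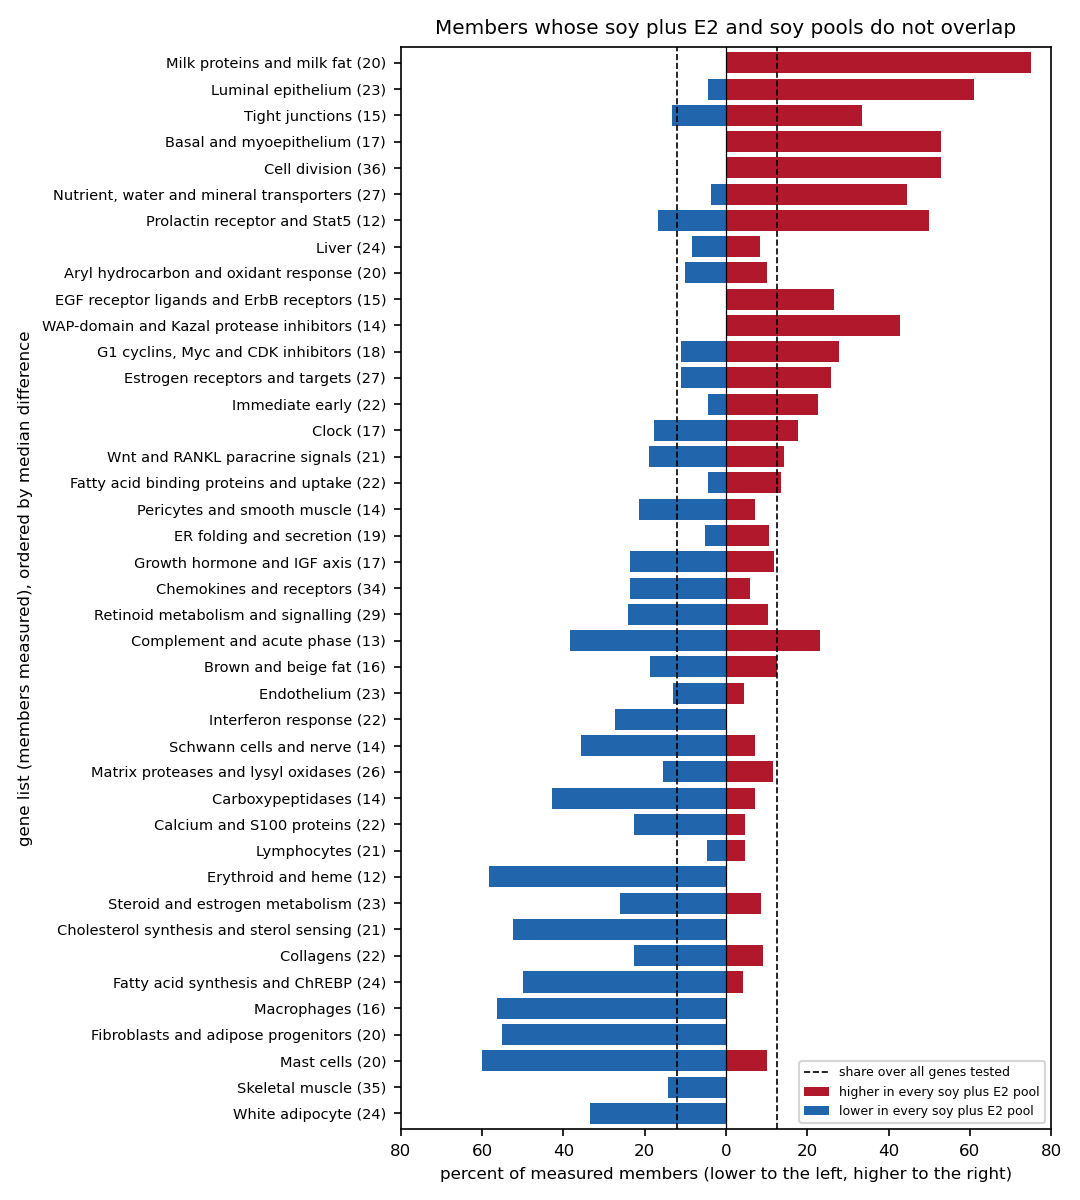
Percent of the measured members of each gene list (rows, with the number measured) that were higher (red, to the right) or lower (blue, to the left) in every soy plus E2 pool than in every soy pool. Dashed lines mark the share over all genes tested, 12.6% higher and 12% lower. Milk, luminal, basal and cell division genes extend far to the right, and mast cell, erythroid, macrophage, fibroblast, cholesterol and fatty acid synthesis genes far to the left.

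White fat genes were lower with E2. Retsat, the gene of retinol saturase, an enzyme abundant in adipocytes, was at -2.04, -1.94 and -0.98 in the soy plus E2 pools, against 0.84, 0.19 and 0.50 in the soy pools, a difference of -2.16 ± 0.33 (adjusted p = 0.0471). It was the only called gene of the 24 white adipocyte genes, of which 23 were on the lower side and 8 had separate groups there, with a median of -1.02. The hormone gene Lep was at -2.04, -1.48 and -0.0028 in the soy plus E2 pools, against 0.61, 0.19 and 0.91 in the soy pools (-1.74 ± 0.64) and the adipokine gene Adipoq at -1.56, -1.004 and 0.018 in the soy plus E2 pools, against 0.81, 0.14 and 0.53 in the soy pools (-1.34 ± 0.39). In both soy plus E2 pool 3 was the pool of its group nearest to the soy pools. The retinol carrier gene Rbp4 (-1.47 ± 0.38) was lower in every soy plus E2 pool as well. Without soy plus E2 pool 3, 15 of the 24 were called lower, against 2.58% of all genes, and 22 of the 24 had separate groups on that side, against 21.3%. Without soy pool 2, 18 of the 24 were separate there, against 18% of all genes. Leaving out any other single pool gave 8 or 9, against 14.1% to 21.2% of all genes. None of the 24 was called in any fit that left out 1 pool other than soy plus E2 pool 3.

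Of 24 fatty acid synthesis genes 12 were lower in every soy plus E2 pool and 1 was higher, and of 21 cholesterol synthesis genes 11 were lower and none higher, with no call in either list. The lower shares were 50% and 52.4%, against 12% of all genes. The lipase-like Pnpla3 was at -1.70, -2.45 and -0.94 in the soy plus E2 pools, against 0.16, 0.11 and 0.075 in the soy pools (-1.81 ± 0.55) and Mlxipl, which encodes the carbohydrate-responsive factor of lipid synthesis, at -0.79, -0.52 and -0.59 in the soy plus E2 pools, against -0.038, -0.019 and -0.13 in the soy pools (-0.57 ± 0.16). The cholesterol synthesis enzyme genes Nsdhl (-0.81 ± 0.23), Msmo1 (-0.67 ± 0.19) and Sqle (-0.58 ± 0.16) were lower in every soy plus E2 pool. The desaturase gene Fads2 went the other way, with 0.28, 0.46 and -0.28 in the soy plus E2 pools, against -0.70, -1.09 and -1.21 in the soy pools (1.15 ± 0.28, adjusted p = 0.0942).

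Retinoid genes lay on both sides. Besides Retsat, the genes Rbp4, Rarres2 (-1.23 ± 0.35) and the retinoic acid receptor gene Rarb (-0.70 ± 0.18) were lower in every soy plus E2 pool. The retinoic acid binding protein gene Crabp2 had 1.33, 1.10 and 0.078 in the soy plus E2 pools, against -0.33, -0.80 and -1.59 in the soy pools (1.74 ± 0.38, adjusted p = 0.0827), and the retinol uptake receptor gene Stra6 (0.92 ± 0.21) was higher as well. Of the 29 listed genes 7 were lower and 3 higher in every soy plus E2 pool, and the median difference was -0.070. These were 24.1% and 10.3%, against 12% and 12.6% of all genes. The estrogen-forming enzyme gene Hsd17b1 was at -0.20, -0.17 and -0.083 in the soy plus E2 pools, against 0.76, 0.25 and 0.41 in the soy pools (-0.63 ± 0.13, adjusted p = 0.0766), and the steroid sulfatase gene Sts (-0.66 ± 0.18) and Hsd17b12 (-0.62 ± 0.18) were lower too. None of the 23 steroid metabolism genes was called, and 6 were lower and 2 higher in every soy plus E2 pool, 26.1% and 8.70% of the list.

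Of 20 mast cell genes 1 fell, and 12 were lower in every soy plus E2 pool, 60% of the list, against 12% of all genes. Milr1, which encodes an inhibitory receptor of mast cells, was at -0.39, -0.96 and -0.26 in the soy plus E2 pools, against 1.01, 1.11 and 0.94 in the soy pools, a difference of -1.56 ± 0.21 (adjusted p = 0.0289) and was the called member. The protease genes Cpa3, with -2.22, -1.37 and -0.083 in the soy plus E2 pools, against 1.28, 1.09 and 0.89 in the soy pools (-2.31 ± 0.48), and Tpsab1, with -1.10, -1.43 and -0.54 in the soy plus E2 pools, against 0.46, 0.36 and 0.36 in the soy pools (-1.41 ± 0.27), were lower. Mcpt9, a mast cell serine protease gene, went the other way with 0.64, 1.001 and 0.37 in the soy plus E2 pools, against -0.22, -0.54 and -0.54 in the soy pools (1.11 ± 0.19, adjusted p = 0.0579). Without soy plus E2 pool 3, 9 of the 20 were called lower and 1 higher, against 2.58% and 2.76% of all genes.

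Carboxypeptidase A1, a digestive enzyme of the pancreas encoded by Cpa1, was at -1.81, -1.14 and -1.09 in the soy plus E2 pools, against 0.74, 0.22 and 0.99 in the soy pools, a difference of -1.999 ± 0.25 (adjusted p = 0.027). In this gene soy plus E2 pool 3 was as low as pool 2. The secreted Cpxm1 (-0.99 ± 0.28) and Cpxm2 (-1.35 ± 0.36) and the mast cell Cpa3 were lower as well, so that 6 of 14 carboxypeptidase genes were lower in every soy plus E2 pool, and the membrane-bound Cpm (0.42 ± 0.11) was higher.

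**Figure D4:**
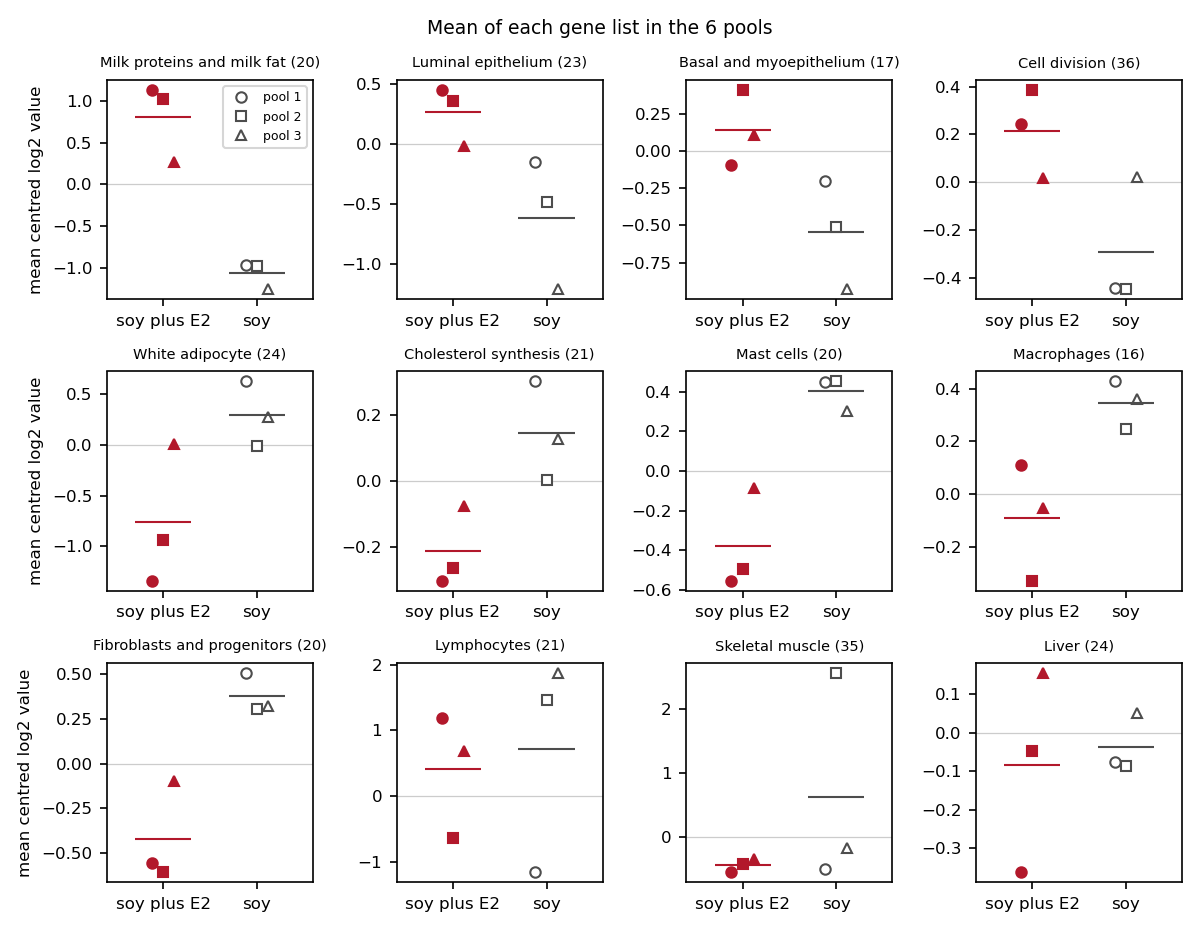
Mean centred log2 value (y axis, a scale of its own in each panel) of 12 gene lists in the soy plus E2 pools (filled red, left) and the soy pools (open grey, right), with a bar at each group mean and the number of genes in the title. Muscle genes are high in soy pool 2 alone, luminal genes lowest in soy pool 3, and lymphocyte genes low in soy plus E2 pool 2 and soy pool 1.

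Macrophage genes were lower in 13 of 16 cases, and in 9 the groups were separate on that side, with none called. The 9 were 56.25% of the list, against 12% of all genes. The mannose receptor gene Mrc1 was at -0.86, -0.53 and -0.089 in the soy plus E2 pools, against 0.74, 0.57 and 0.66 in the soy pools (-1.15 ± 0.25, adjusted p = 0.083), and the growth factor receptor gene Csf1r (-0.98 ± 0.26), Adgre1 (-0.94 ± 0.22) and the complement gene C1qa (-0.61 ± 0.18) were lower too, while Cd14 (0.74 ± 0.24) was on the higher side with overlapping groups. Fibroblast and progenitor genes were lower in 19 of 20 cases, with 11 separate groups and a median of -0.65, against -0.0025 over all genes tested. They included Dpp4 at -0.065, -0.64 and -0.01 in the soy plus E2 pools, against 0.87, 0.85 and 0.93 in the soy pools (-1.12 ± 0.26), the matrix fibril gene Mfap5 (-0.88 ± 0.21) and Scara5 (-0.82 ± 0.18). Of 22 collagen genes 5 were lower in every soy plus E2 pool, among them Col8a1 (-1.01 ± 0.31) and Col14a1 (-0.56 ± 0.17), and 2, Col17a1 (1.16 ± 0.28) of the basal epithelium and Col27a1 (0.91 ± 0.25), were higher. The 5 lower are 22.7% of the list, against 12% of all genes, and without soy plus E2 pool 3 they were 15, against 21.3%, and without soy pool 3 they were 10, against 16.5%. Leaving out any other single pool gave 5 or 6 lower collagen genes, against 14.1% to 21.2% of all genes. The chemokine gene Cxcl13 was at -1.02, -3.14 and -0.097 in the soy plus E2 pools, against 0.78, 1.12 and 1.51 in the soy pools (-2.56 ± 0.66), with a single very low soy plus E2 pool. That pool, 2, also held few lymphocyte transcripts, and their part in the result was not tested.

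Erythroid genes were lower in 7 of 12 cases without overlap, 58.3% against 12% of all genes. The heme synthesis enzyme gene Alas2 was at -2.18, -1.71 and -0.88 in the soy plus E2 pools, against 0.29, -0.0064 and 0.59 in the soy pools (-1.88 ± 0.32, adjusted p = 0.0579) and the beta-globin gene Hbb at -2.29, -1.57 and -0.62 in the soy plus E2 pools, against 0.18, 0.29 and 0.85 in the soy pools (-1.94 ± 0.39, adjusted p = 0.0766), neither of which passed. Of 23 endothelial genes 3 were lower and 1 higher without overlap, 13% and 4.35% against 12% and 12.6% of all genes, with a median of -0.15. The lymphatic vessel gene Lyve1, also made by some macrophages, was among the lower ones at -0.70, -0.85 and 0.098 in the soy plus E2 pools, against 0.69, 0.76 and 0.49 in the soy pools (-1.13 ± 0.23, adjusted p = 0.0766).

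Clec3b, the gene of tetranectin, a secreted plasminogen-binding protein, had the most negative difference of all genes and was not called. It was at -3.57, -3.57 and -3.19 in the soy plus E2 pools, against 0.93, 0.56 and 1.17 in the soy pools, a difference of -4.33 ± 0.80 (adjusted p = 0.0654). All 3 soy plus E2 pools were far below the soy pools, and its 2 probe sets gave -4.30 and -4.36, of which the first passed on its own (adjusted p = 0.0437 over all probe sets). Without soy plus E2 pool 3 the gene was called (adjusted p = 0.036). Among casein-fed arrays casein pool 2 was as low, at -3.24, while the other 5 lay between -0.31 and 0.87. Casein pool 2 enters the spread that the fit used. The difference of the E2 effect between diets had an adjusted p of 0.537. Saa3, an acute phase gene, was on the higher side without passing, with 4.67, 4.56 and 1.62 in the soy plus E2 pools, against -1.30, -1.47 and -0.45 in the soy pools (4.69 ± 0.83, adjusted p = 0.0605).

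Afp, the alpha-fetoprotein gene, which in rodents encodes an estrogen-binding plasma protein of the fetal liver, was at -0.72, -0.57 and -0.79 in the soy plus E2 pools, against 0.38, 0.44 and 0.68 in the soy pools, a difference of -1.19 ± 0.12 (adjusted p = 0.0174). The pools of each group lay close together. It was the called gene of 24 liver genes, of which 2 were higher and 2 lower without overlap. The defining liver genes Fabp1 (0.41 ± 1.69) and Alb (-1.92 ± 1.14) had overlapping groups. Casein pool 3, at 8.01 for Fabp1 and 4.69 for Alb, enters the spread behind these SEs. The soy-fed pools lay between -0.65 and 0.21 for Fabp1 and between -2.60 and 1.33 for Alb. In casein-fed rats Afp differed by 0.15 ± 0.14, and the difference between diets did not pass (adjusted p = 0.15).

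Of 17 clock genes 3 were higher and 3 lower without overlap, 17.6% each way and near the 12.6% and 12% of all genes, and none was called. The members below are given for their values only. The repressor gene Cry1 was at -0.97, -0.79 and -0.60 in the soy plus E2 pools, against 0.0038, 0.066 and 0.05 in the soy pools (-0.83 ± 0.14, adjusted p = 0.0579), and the activator gene Bmal1 (-0.52 ± 0.14) and Nfil3 (-0.61 ± 0.14) were also lower in every soy plus E2 pool. Higher in every one were Per3, at 0.62, 0.49 and 0.62 in the soy plus E2 pools, against -0.17, 0.30 and -0.13 in the soy pools (0.57 ± 0.12, adjusted p = 0.0823), and Nr1d2, at 0.66, 0.45 and 0.73 in the soy plus E2 pools, against -0.15, 0.40 and -0.016 in the soy pools (0.54 ± 0.14), which encodes a repressor of Bmal1. Dbp (0.54 ± 0.23) and Nr1d1 (0.98 ± 0.39) were on the higher side with overlapping groups. In soy plus E2 pool 3 the difference of Cry1 was 69.3% and that of Per3 112% of the mean of pools 1 and 2. The hour at which glands were taken is not given in the sources used here, and its part in the result was not tested.

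The other called genes had varied roles. Phlda1, whose protein carries a pleckstrin homology-like domain, was at 0.53, 1.02 and 0.58 in the soy plus E2 pools, against -0.96, -1.36 and -1.09 in the soy pools, a rise of 1.84 ± 0.20 (adjusted p = 0.0174). Chrdl2, a gene for a secreted binder of bone morphogenetic proteins, was at 2.45, 2.68 and 0.75 in the soy plus E2 pools, against -1.22, -1.16 and -1.59 in the soy pools, a rise of 3.28 ± 0.41 (adjusted p = 0.027). Mesothelin, a surface glycoprotein encoded by Msln, was at 1.61, 1.91 and 0.80 in the soy plus E2 pools, against -0.63, -0.37 and -0.55 in the soy pools, a rise of 1.96 ± 0.29 (adjusted p = 0.0398). In these 3 genes the soy pools lay close together.

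Arg2, the mitochondrial arginase gene, was called with 0.81, 1.16 and 0.27 in the soy plus E2 pools, against -0.34, -0.83 and -0.73 in the soy pools and a rise of 1.38 ± 0.22 (adjusted p = 0.0491). Ddah1, whose enzyme clears an inhibitor of nitric oxide synthesis, was called with 0.58, 0.66 and 0.029 in the soy plus E2 pools, against -0.61, -1.05 and -1.01 in the soy pools and a rise of 1.32 ± 0.20 (adjusted p = 0.0398). Ankrd34b (2.10 ± 0.31), Mfap3l (2.11 ± 0.29), the glycosyltransferase gene Extl1 (2.02 ± 0.32), Plekhh1 (1.86 ± 0.29), Tedc1 (1.29 ± 0.19), Fam131b (1.21 ± 0.16) and Erich2 (1.19 ± 0.16) rose, and the calmodulin methyltransferase gene Camkmt fell (-0.67 ± 0.11, adjusted p = 0.0491).

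Just outside the threshold on the raised side were the cytokine genes Il18, with 1.19, 0.95 and 0.30 in the soy plus E2 pools, against -0.73, -0.30 and -0.48 in the soy pools (1.31 ± 0.21), and Il17b (1.72 ± 0.28), the forkhead gene Foxq1 (0.80 ± 0.13), the adhesion gene Cxadr (2.71 ± 0.46) and Prr27 (2.98 ± 0.48), with adjusted p between 0.051 and 0.0579. On the lowered side they were Lyl1, a blood cell transcription factor gene, with -0.10, -0.42 and 0.048 in the soy plus E2 pools, against 0.53, 0.52 and 0.61 in the soy pools (-0.71 ± 0.12, adjusted p = 0.051), the adhesion gene Icam2 (-0.67 ± 0.12), the receptor genes P2ry12 (-1.06 ± 0.19) and Epha3 (-0.88 ± 0.16), Prune2 (-0.57 ± 0.10), Pcdh20 (-1.47 ± 0.29) and the heme-pathway reductase gene Blvrb (-0.73 ± 0.14). All of these had separate groups.

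Skeletal muscle genes were highest in soy pool 2. All 35 were on the lower side with E2, as were 7176 of the 14217 genes tested. Their median was -0.91, and it was -0.10 without that pool. The groups were separate on the lower side for 5 of the 35, 14.3% against 12% of all genes. None of the 35 had an unadjusted limma p under 0.05. Without soy pool 2, 5 were lower and 2 higher without overlap, against 18% and 16.5% of all genes. The creatine kinase gene Ckm was at -1.75, -1.61 and -1.41 in the soy plus E2 pools, against -1.18, 4.86 and -0.49 in the soy pools (-2.65 ± 1.49, adjusted p = 0.352). No muscle gene was called, and the 31 called genes had no member of this list.

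Soy plus E2 pool 3 gave a smaller response than pools 1 and 2 in most called genes. Measured from the mean of the soy pools, its difference was the smallest of the 3 in 27 of the 31 called genes and in 57.2% of all genes. In the called genes its median size was 66.7% of the mean of pools 1 and 2, and it ranged from 53.4% for Ankrd34b to 112.5% for Afp. Over all genes tested the median was 42.0%, with a range from -1.531e+06% to 2.011e+05%. Such shares have little meaning where the mean of pools 1 and 2 lies near the soy pools, so 42.0% is no background for the called genes. Shc4 was at 102.9% and Camkmt at 102.2%, and Phlda1 at 89.8% and Fam131b at 89.1% came next. Since the called genes were chosen with pool 3 in the fit, these shares describe them and are no test. Without this pool 760 genes were called, 393 higher and 367 lower, and all 31 were among them.

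**Figure D5:**
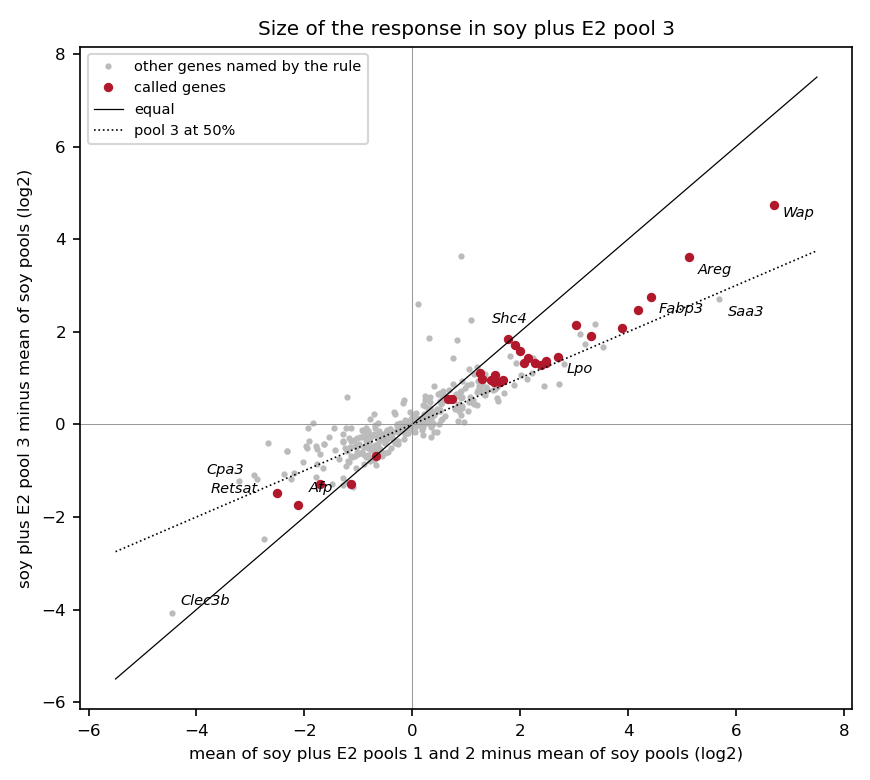
Difference of soy plus E2 pool 3 from the mean of the soy pools (y axis, log2) against the mean difference of soy plus E2 pools 1 and 2 (x axis, log2) for the called genes (red) and the other genes named by rule (grey). Most called genes lie between the solid line of equal response and the dotted line at 50%, while Clec3b, Afp and Shc4 lie on or near the solid line.

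Of 34 chemokine and receptor genes 8 were lower and 2 higher without overlap, of 22 interferon response genes 6 were lower, and of 14 Schwann cell and nerve genes 5 were lower and 1 higher. The lower shares were 23.5%, 27.3% and 35.7%, against 12% of all genes. In the complement and acute phase list of 13 the groups were separate on the lower side for 5, among them A2m (-1.23 ± 0.32) and C6 (-1.12 ± 0.35), and on the higher side for 3, Saa3, the acute phase gene Orm1 (2.92 ± 1.07) and the ceruloplasmin gene Cp (0.79 ± 0.30). Of 22 immediate early genes 5 were higher, including Atf3 (1.24 ± 0.29) and Ier3 (1.10 ± 0.32), and 1, the phosphatase gene Dusp1 (-0.35 ± 0.19), was lower. Of 22 calcium and S100 genes 5 were lower and 1 higher, 22.7% and 4.55% against 12% and 12.6% of all genes. By separate groups the lists of ER folding (2 higher and 1 lower of 19), brown fat (2 and 3 of 16), fatty acid uptake (3 and 1 of 22), pericytes (1 and 3 of 14), matrix proteases (3 and 4 of 26), oxidant response (2 and 2 of 20) and lymphocytes (1 and 1 of 21) had members on both sides. Their higher shares ran from 4.76% to 13.6%, against 12.6% of all genes. Their lower shares ran from 4.55% to 21.4%, against 12%, and no result is read from these counts. Single pools moved such counts. Without soy pool 1, 17 of the 21 lymphocyte genes and 12 of the 22 interferon genes were lower, against 21.2% of all genes. Without soy plus E2 pool 3, 12 of the 26 matrix protease genes and 11 of the 22 calcium and S100 genes were lower, against 21.3%. Without soy plus E2 pool 2, 7 of the 20 oxidant response genes were higher, against 14.0% of all genes, and 1 was called. With all pools in the fit, Fabp3 was the only called gene of these 13 lists.

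In casein-fed rats 20 of the 31 called genes were called as well. Their pools are other samples, but both comparisons used the same estimate of the spread for each gene. A gene with a small spread was thus favoured in both. The E2 difference had the same sign in 30 of the 31, some of them with little change there. The shares of all genes called in casein-fed rats, or with the same sign, were not counted, so neither count has a background. The gene with the other sign was Afp. The difference between diets was tested for every gene, and 0 passed in limma (0%), with 929 genes, 6.53%, at an unadjusted p under 0.05. Shc4 differed by 0.39 ± 0.19 in casein-fed rats, a gap between diets of 1.41 ± 0.26 (adjusted p = 0.389), and Erich2 by 0.0029 ± 0.18, a gap of 1.19 ± 0.24 (adjusted p = 0.477). Lpo differed by 4.34 ± 0.34 there, a gap of -2.05 ± 0.46 in the other direction (adjusted p = 0.528). Wap (5.07 ± 0.93), Areg (3.02 ± 0.59) and Pgr (3.09 ± 0.39) were also higher with E2 in casein-fed rats, with adjusted p of the gap between 0.778 and 0.942. The macrophage gene Csf1r differed by 0.11 ± 0.29 in casein-fed rats, with a gap of -1.09 ± 0.38 (adjusted p = 0.666). A p above the threshold does not show that the diets acted alike.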

How the data were processed

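RNA from 12 pools was hybridised to Affymetrix rat arrays, 3 per group. The submitters' processing notes name GCOS without a version, and no source used here states the summary method, the normalization or the log base. The deposited log2 values are read as such from their range and centring, each probe set lying around a median of 0 over the 12 arrays, so neither level nor detection can be read. Of 31099 probe sets 20826 had 1 gene symbol, 436 had several and 9780 were unnamed here. A gene value is the mean of its probe sets (14217 genes, 4525 of them with more than 1). limma 3.58.1 in R 4.3.3 fitted 4 group means and tested soy plus E2 minus soy, two-sided, with adjustment over all genes. Casein plus E2 pools 2 and 3 were almost identical (SD of their difference 0.163, the next pair 0.301) and were averaged into 1 sample, leaving 11 samples and 7 residual degrees of freedom. The fitting code was tested on simulated data of 12 separate arrays without outlying pools. The fit with the averaged pair was not tested in this way.

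Named genes are the called genes, up to 15 lowered and 10 raised uncalled genes of smallest p with separate groups (symbols starting LOC or RGD or ending Rik left unnamed), 5 markers, and, for each of 41 lists (892 symbols, 794 measured), its first 2 measured members and up to 4 of smallest p per direction. The comparison, the members and the lists were chosen with earlier results of these data known. Csn2 and Glycam1 fall outside the naming rule and were named after their values were seen. Alternatives covered normalization, probe set choice, samples in the fit, the pool number, the spike-in split, weights per array, omission of each pool and a fold minimum of 1.5. Promoter windows came from RefSeq tables (GRCr8), and no chromosome sequence was used.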

Additional observations from a re-analysis of the deposited data

How the results depend on the processing

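Against 31 called genes in all pools, limma called 234 after quantile normalization, 226 with 12 separate arrays, 73 with a term for the spike-in split, 2034 with array weights, 9 with the soy-fed groups only and 0 against a 1.5-fold minimum (216 at an unadjusted p under 0.05). Median centring gave 23, the probe set of largest SD 39, a robust spread 23 and every probe set 30. Leaving out 1 pool gave 0 to 760, and leaving out soy pool 2 and soy plus E2 pool 3 together gave 317. All 31 genes were among the calls after quantile normalization, with 12 separate arrays, with the spike-in term, with array weights and without soy plus E2 pool 3. Of the 31, 28 were called with the probe set of largest SD and 23 each with median centring and a robust spread. Only 12 were called with the replicate block, 6 with the soy-fed groups only and 0 without soy pool 2 or without soy pool 3. The array weights were largest, 3.89, for soy pool 2, the pool with muscle transcripts. The difference between diets was called for 0 genes in all pools, 1 with the spike-in term, 4 with 12 separate arrays and 5 with array weights, and 0 in every fit that left out 1 soy-fed pool. The causes were not tested.

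The labels do not say whether pool numbers pair the samples. Deviations of same-numbered soy plus E2 and soy pools from their group means correlated at -0.42, -0.18 and 0.088. Pools of different numbers ran from -0.414 to 0.433. Deviations from the mean of 3 pools are tied to each other, so these correlations cannot decide the question. With the replicate block 13 genes were called, 12 of them among the 31.

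Of the genes named, Igfbp5 was 0.22 by its probe set of largest SD, and leaving out 1 soy plus E2 pool moved Esr2 between -0.0020 and 0.14. Counts of list members without single pools were added after seeing the data. The arrays give no level or detection, so dim genes could not be set aside.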

Other observations

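The genes in this paragraph fall outside the naming rule and were named after their values were seen, and none was called. Among genes higher in every soy plus E2 pool, Olah, the thioesterase gene that sets the chain length of milk fat in rodents, had 1.32, 1.25 and 0.29 in the soy plus E2 pools, against -1.78, -0.98 and -2.21 in the soy pools (2.61 ± 0.53, limma adjusted p = 0.0766). The gap junction gene Gjb2 had 1.27, 1.05 and 0.22 in the soy plus E2 pools, against -0.63, -1.18 and -2.15 in the soy pools (2.17 ± 0.45, adjusted p = 0.0766). The transferrin receptor gene Tfrc, which brings iron into cells, had 1.44, 1.75 and 0.25 in the soy plus E2 pools, against -1.21, -0.33 and -0.71 in the soy pools (1.89 ± 0.37, adjusted p = 0.0766). The glycine methyltransferase gene Gnmt (2.45 ± 0.69, adjusted p = 0.119) and Cth (2.43 with adjusted p = 0.21), whose enzyme makes cysteine, were higher too, while Gp2 (-1.97 ± 0.73, adjusted p = 0.179) was lower in every soy plus E2 pool. In each of the higher genes soy plus E2 pool 3 lay nearest to the soy pools.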
